A study of Rattus norvegicus with 18 samples.

Results

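Gja1 encodes Cx43, the main gap junction protein of bone. It was followed on 18 arrays from the fractured femur of rats of 3 ages. The gene was selected on its measured pattern on these same arrays, so its values are given as a description and without a test. The arrays carried 8799 probe sets for 4737 named genes, and 1 probe set was annotated to Gja1 (rc_AI029183_s_at, gene ID 24392). Of all probe sets, 4669 passed a minimum signal for testing, the one of Gja1 among them. The ending of its name marks a probe set whose probes may match more than one transcript, so its signal may not come from Gja1 alone.

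Tissue came from intact female Sprague-Dawley rats that were 6 weeks (young), 26 weeks (adult), or 52 weeks (older) of age at surgery. A transverse break was made in the middle of the left femur around an intramedullary rod. Rats were killed 3 days, 1 week, 2 weeks, 4 weeks, or 6 weeks later, and no-fracture rats served as sham controls at time 0. Every array held the pooled RNA of 2 rats, with 1 array for each age and time, so that the 3 arrays of a time differed in age and the 5 arrays of an age after fracture differed in time. Values are array signals in arbitrary units, scaled on each array to a common average, with a median over all probe sets between 137.2 and 182.6. Within an array, 37.2% to 43.4% of signals lay below 100, and such signals were set to 100 before log2 values were taken. The Gapdh probe sets at the 5′ and 3′ ends of the transcript, whose ratio drops in degraded RNA, gave a ratio of 0.257 for the young 6-week array and of 0.650 to 0.913 for the other 17.

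Gap junctions are channels that join the cytoplasm of neighbouring cells and pass ions and small signalling molecules between them. Each cell contributes a hemichannel made of connexin subunits. In bone, Cx43 links osteoblasts, osteocytes, and their precursors, and it is also made by chondrocytes, fibroblasts, smooth muscle, and endothelium. The harvested segment held callus, cortical bone, and marrow together, so fewer cells of a type and less RNA per cell cannot be told apart. The bone markers Ibsp (bone sialoprotein) and Bglap (osteocalcin) reached a signal of 200 on 18 of 18 arrays. Col2a1, the main collagen of cartilage, reached it on 15 arrays, the endothelial marker Pecam1 on 17, the muscle markers Myh2 and Ckm on 18, and the erythroid markers Hbb and Alas2 on 18. S100a8 and S100a9 of neutrophils reached it on 16 arrays each. The endothelial marker Vwf reached it on 0 arrays, with a highest signal of 138.5.

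In the GRCr8 assembly, RefSeq places Gja1 on chromosome 20 from 36302490 to 36315010. The members of the AP-1 family, Fos and Jun proteins, bind a short palindrome, and the stretch around the only match to it is shown because Fos and Jun genes are among the known regulators described further on. The 300-base RefSeq window around the Gja1 start held 1 match to TGANTCA, which reads the same on both strands. The match lay at chr20:36302506-36302512, 58 to 52 bases before the start site of the window. That start site, base 36302564, lies 74 bases inside the annotated gene span, so the match also falls within the span. The 30 bases around it, from 36302495 to 36302524 on the plus strand, are printed with the match in capitals.
Gja1 AP-1 match: ctccttccagtTGAGTCAgtggcttgaaac
The window held no match to the GC box GGGCGG or to the RUNX motif TGTGGT on either strand. Of 33469 rat windows of 300 bases, 7.33% held the AP-1 motif, 33.1% the GC box, and 17.3% the RUNX motif. These are matches of letters only.

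Gja1 was low without fracture and higher at 3 days in all 3 ages. Without fracture, the Gja1 signal was 182.9 in young, 19.2 in adult, and 15.2 in older rats. At 3 days it was 426.9 in young, 543.4 in adult, and 744.3 in older rats. The 3 signals at 3 days lay above all 3 no-fracture signals, and the adult and older no-fracture signals were below 100. Among all probe sets of an array, Gja1 stood above 72.6% in young, 76.9% in adult, and 81.8% in older rats at 3 days, against 55.0% in young, 14.3% in adult, and 10.1% in older no-fracture rats.

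After 3 days the ages followed different courses. In young rats the Gja1 signal was 221.8 at 1 week, 656.7 at 2 weeks, 332.6 at 4 weeks, and 17.1 at 6 weeks. In adult rats it was 196.0 at 1 week, 164.5 at 2 weeks, 204.0 at 4 weeks, and 148.6 at 6 weeks. In older rats it was 551.6 at 1 week, 426.3 at 2 weeks, 632.6 at 4 weeks, and 561.3 at 6 weeks. Young rats thus had their highest signal at 2 weeks, whereas adult and older rats had theirs at 3 days, and in older rats the lowest signal after fracture was 426.3. The young 6-week signal was below 100, and this array was the one with the low Gapdh ratio. The part of RNA integrity in that value was not tested.

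**Figure D1:**
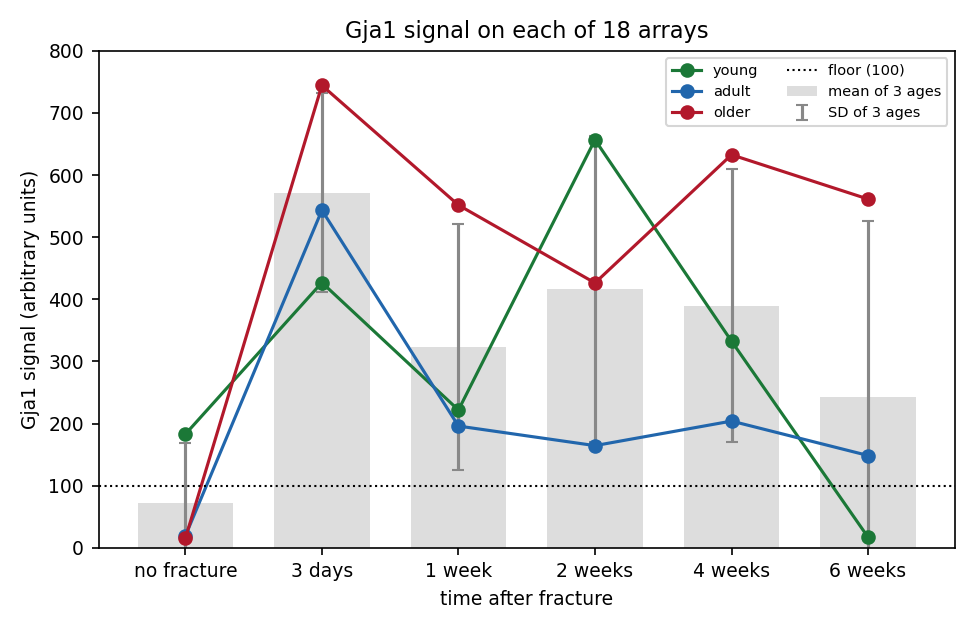
Gja1 signal in arbitrary units (linear axis, from 0) against time after fracture in young, adult, and older rats. Points are single arrays of 2 pooled rats, bars are the mean of 3 ages, and error bars are the SD of the 3 ages, which for no fracture and 6 weeks run below the axis. The older rats stay at 426.3 or higher at all times after fracture, and the young rats are at 17.1 at 6 weeks.

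The mean Gja1 signal over the 3 ages was 72.4 ± 95.7 without fracture, 572 ± 161 at 3 days, 323 ± 198 at 1 week, 416 ± 246 at 2 weeks, 390 ± 220 at 4 weeks, and 242 ± 284 at 6 weeks (SD, n = 3 each). In order of level, 3 days was highest, followed by 2 weeks, 4 weeks, 1 week, 6 weeks, and no fracture. Each step in that order, of 26.1 to 170 units, was smaller than the larger SD of the 2 times it separates, so no neighbours in the order differed beyond their spread.

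Within an age, Gja1 at 3 days minus no fracture was 1.22 in young, 2.44 in adult, and 2.90 in older rats on the log2 scale. The mean was 2.19 ± 0.87 (SD, n = 3), or 4.55-fold, with signals below 100 set to 100. Since the adult and older no-fracture signals lay below 100, the differences of these ages, at this and the later times, are set by that floor and understate those of the measured signals. With a floor of 20 the mean at 3 days was 3.73. The mean log2 difference from no fracture was 1.24 ± 1.12 at 1 week, 1.55 ± 0.73 at 2 weeks, 1.52 ± 0.99 at 4 weeks, and 0.73 ± 1.69 at 6 weeks (SD, n = 3 each). The signal was above that of no fracture in 3 of 3 ages at each time up to 4 weeks and in 2 of 3 ages at 6 weeks. At 6 weeks the differences were -0.87 in young, 0.57 in adult, and 2.49 in older rats, so that their SD exceeded their mean. The young value is also set by the floor, since the young 6-week signal was below 100.

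The mean differences at 1, 4, and 6 weeks leaned on the older rats, and that at 2 weeks less so. Without the older rats the mean log2 difference was 0.62 at 1 week, 1.28 at 2 weeks, 0.95 at 4 weeks, and -0.15 at 6 weeks. With single arrays left out, the difference was a least-squares estimate with time and age as terms, not a mean over paired arrays. Without the older no-fracture array that estimate was 0.70 at 1 week, 1.01 at 2 weeks, 0.98 at 4 weeks, and 0.19 at 6 weeks. At 6 weeks the estimate was 0.21 without the older 6-week array, 1.30 without the young 6-week array, and 1.12 without the young no-fracture array. The plain mean over young and adult rats at 6 weeks was -0.15, as given above. At 2 weeks the estimate was 0.99 without the young 2-week array. The difference at 3 days lay between 1.65 and 2.67 with any array or age left out.

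Over the 5 times after fracture, Gja1 had its highest mean in older rats. The signal averaged 331 ± 238 in young rats (17.1 to 656.7, median 332.6), 251 ± 165 in adult rats (148.6 to 543.4, median 196), and 583 ± 117 in older rats (426.3 to 744.3, median 561.3; SD, n = 5 each). The ranges overlapped between all ages. Within a time, older minus young was 0.80 at 3 days, 1.31 at 1 week, -0.62 at 2 weeks, 0.93 at 4 weeks, and 2.49 at 6 weeks on the log2 scale, a mean of 0.98 ± 1.12 (SD, n = 5). Older rats were above young rats at 4 of 5 times, and the mean was smaller than its SD. The 6-week difference is set by the floor, since the young 6-week signal was below 100. With a floor of 20 the mean was 1.45.

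Older minus adult was more even, at 0.45 at 3 days, 1.49 at 1 week, 1.37 at 2 weeks, 1.63 at 4 weeks, and 1.92 at 6 weeks, a mean of 1.37 ± 0.55 (SD, n = 5). Older rats were above adult rats at 5 of 5 times. Adult minus young averaged -0.39 ± 1.02, with its 6-week value set by the floor, and adult rats were the higher at 2 of 5 times. Without fracture the order was the other way, with older minus young at -0.87, a value set by the floor because the older signal was below 100. Older minus adult without fracture has no value because both signals were below 100. By least squares with time and age as terms, older minus young after fracture was 0.67 without the young 6-week array and 1.38 without the young 2-week array.

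The other connexins were set beside Gja1 to see whether the gap junction family moved with fracture. The list of connexins and pannexins had 23 symbols, of which 9 had a probe set of their own (13 probe sets). Besides Gja1, 4 genes with 6 probe sets passed the minimum signal. These were Gja4 and Gja5, connexins of the vessel wall, Gjb1, a connexin of liver and myelinating glia, and Gjb5, a connexin of skin. Gja3, Gja6, Gjb2, and Gjd2 had probe sets that reached a signal of 200 on 0 arrays. Each time was compared with no fracture by limma with age as a term, 3 arrays against 3, and p-values were adjusted by Benjamini-Hochberg over all 4669 probe sets, with calls at an adjusted p below 0.05. No age had a second array at a time. The spread behind these p-values is therefore the scatter left over all 18 arrays after the time and age terms, moderated across probe sets. It is not a spread between like arrays.

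At 3 days, 2 of the 6 connexin probe sets were called higher, against 24.5% of all probe sets tested, and 1 was called lower, against 19.7%. At 1 week 2 were called higher and 0 lower, against 14.3% and 10.5% of all. At 2 weeks 2 were called higher and 0 lower, against 12.8% and 8.27% of all. At 4 weeks 0 were called in either direction by limma (0 at an unadjusted p below 0.05), against 5.05% higher and 1.43% lower among all, and at 6 weeks likewise 0 (0 unadjusted), against 3.19% and 1.2%.

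Gja4 was up-regulated by fracture early. Its signal was 525.5 in young, 603.3 in adult, and 604.9 in older rats at 3 days, against 300.2 in young, 311.3 in adult, and 129.4 in older no-fracture rats, with no overlap. The log2 change was 1.33 ± 0.34 (SE) at 3 days (adjusted p = 0.00524, limma), 1.33 at 1 week (adjusted p = 0.00908), and 1.05 at 2 weeks (adjusted p = 0.0363). At 4 weeks it was 0.65 (adjusted p = 0.309) and at 6 weeks 0.36 (adjusted p = 0.601). Unlike the Gja1 signal, the Gja4 signal of young rats at 2 weeks, 478.1, was close to those of adult (474.4) and older rats (477.9).

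Gja5 gave different readings on its 2 tested probe sets. On the first, AF022136_at, the signal was 266.2 in young, 369.9 in adult, and 369.5 in older rats at 3 days, against 142.6 in young, 155.5 in adult, and 262.5 in older no-fracture rats. The log2 change was 0.88 ± 0.25 (SE) at 3 days (adjusted p = 0.0109, limma), 1.10 at 1 week (adjusted p = 0.00502), and 0.99 at 2 weeks (adjusted p = 0.0109). On the other, M76535cds_at, the log2 difference was -0.69 ± 0.28 (SE) at 3 days (adjusted p = 0.0564) and passed the threshold at no time in this fit. At 3 days it was called lower in 4 of 12 alternative fits, namely with quantile normalization, with equal array medians, with a stricter filter, and without the young 6-week array (adjusted p over the 12 fits 0.0341 to 0.241, limma or the methods' t-test). The direction of Gja5 is therefore uncertain.

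Gjb1 was down-regulated at 3 days. Its signal was 191.7 in young, 151.3 in adult, and 71.3 in older rats at 3 days, against 263.3 in young, 295.6 in adult, and 314.2 in older no-fracture rats. The log2 change was -1.03 ± 0.33 (SE; adjusted p = 0.0203, limma), and the groups did not overlap. The older 3-day signal lay below 100, so the change depends on the floor. It was -1.19 with a floor of 20 and -0.54, no longer called, with a floor of 200. The 2 tested probe sets of Gjb5 passed the threshold at no time, with log2 differences of -0.63 and -0.43 at 3 days.

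The calls on Gja4, Gja5, and Gjb1 were lost in some fits with fewer arrays. With the adult rats left out, which leaves 2 arrays a side, none of these 7 calls passed, and the log2 changes at 3 days were 1.52 for Gja4, 0.70 for Gja5, and -1.05 for Gjb1. Without the young rats Gja5 lost its calls at 3 days (0.87) and 2 weeks (0.98). Without the older rats Gja4 lost its calls at 1 week (0.69) and 2 weeks (0.64), and Gjb1 at 3 days (-0.71).

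**Figure D2:**
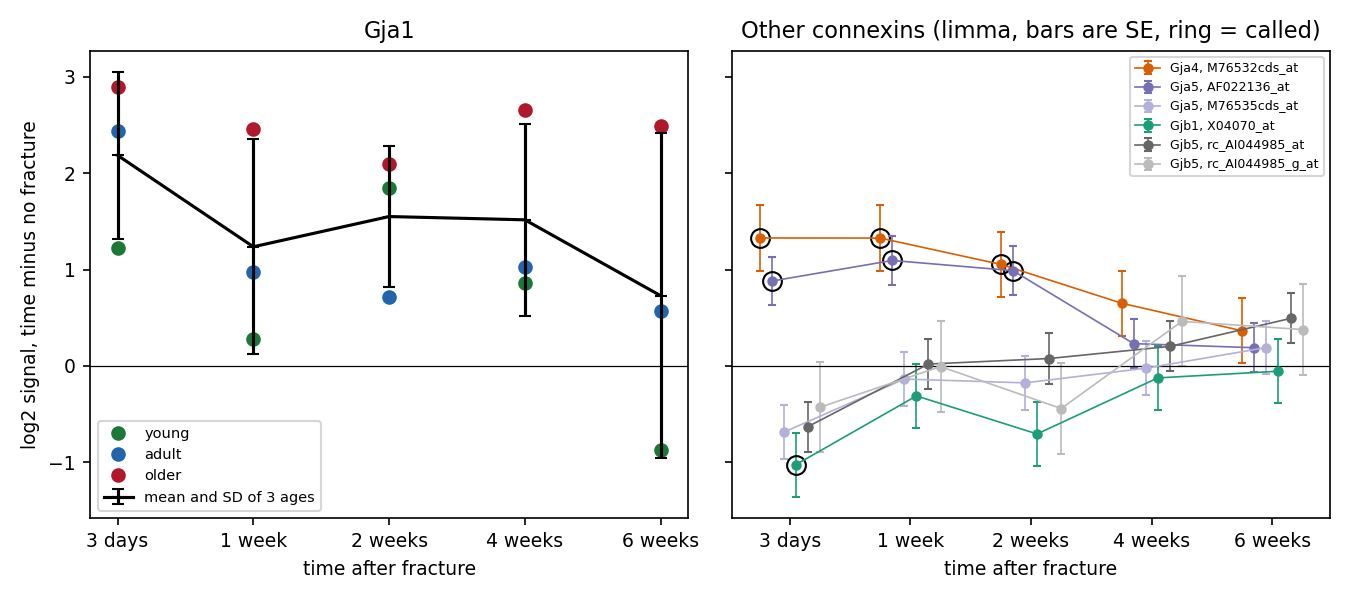
Log2 signal at each time minus no fracture. Left, Gja1 in young, adult, and older rats with the mean and SD of the 3 ages. Right, the 6 tested probe sets of the other connexins with the limma estimate and SE (3 arrays against 3), and a ring where the adjusted p passed 0.05. Gja1 has its highest mean, 2.19, at 3 days, where Gja4 is at 1.33 and Gjb1 at -1.03.

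Between ages after fracture, 0 of the 6 connexin probe sets were called in older against young rats by limma with time as a term (5 arrays against 5), while 2 had an unadjusted p below 0.05. The share of all probe sets at that unadjusted p is not given for any comparison. Such counts, here and for the lists below, thus have no background beside them. Among all probe sets, 0.0857% were called higher and 0.0643% lower. These are 4 higher and 3 lower, which became 14 higher and 28 lower with equal array medians. Gja4 was 0.59 ± 0.18 higher in older rats on the log2 scale (SE, adjusted p = 0.0905), and Gja5 on its first probe set 0.54 ± 0.19 higher (SE, adjusted p = 0.138). Over 22 alternative fits the adjusted p of Gja4 was 0.0456 to 0.533, and it passed only without the older 3-day array.

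Proteins that bind Cx43 at the junction were described next. Their list, like the other gene lists, was chosen with earlier results of these data known, so its counts are a description. Cx43 attaches to scaffold, cytoskeletal, and adhesion proteins that place channels at the membrane and to a ligase that removes them. Of 10 such partners tested, 6 were up-regulated and 1 was down-regulated at 3 days, 5 and 1 at 1 week, 5 and 0 at 2 weeks, 3 and 0 at 4 weeks, and 0 and 0 at 6 weeks (limma; 4 at an unadjusted p below 0.05). Among all probe sets tested, the shares called higher and lower were 24.5% and 19.7% at 3 days, 14.3% and 10.5% at 1 week, 12.8% and 8.27% at 2 weeks, and 5.05% and 1.43% at 4 weeks, and these shares also stand behind the kinases and regulators that follow. The median log2 difference of the list was 0.85 at 3 days, 0.83 at 1 week, 0.69 at 2 weeks, 0.38 at 4 weeks, and 0.14 at 6 weeks, against 0.01 over all probe sets at 3 days. In older against young rats after fracture, 0 of 10 were called by limma (4 unadjusted).

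Cdh2, or N-cadherin, the adhesion molecule of osteoblasts and their precursors, had a pattern near that of Gja1 at the start. Its signal was 434.2 in young, 769.5 in adult, and 473.9 in older rats at 3 days, against 124.4 in young, 11.5 in adult, and 12.6 in older no-fracture rats. The log2 change was 2.33 ± 0.36 (SE, adjusted p = 0.000159, limma), a value limited by the floor of 100, below which the adult and older no-fracture signals lay. In young rats the highest Cdh2 signal, 665.7, was at 2 weeks, as for Gja1.

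Dbn1 encodes drebrin, which joins Cx43 to actin. Its signal was 1453.0 in young, 1084.6 in adult, and 1192.1 in older rats at 3 days, against 396.5 in young, 338.9 in adult, and 304.7 in older no-fracture rats, a log2 change of 1.84 ± 0.27 (SE, adjusted p = 9.51e-05). Nedd4, a ubiquitin ligase that takes Cx43 out of the membrane, was up-regulated by 1.56 ± 0.32 at 3 days (SE, adjusted p = 0.00111), and its log2 difference was -0.81 at 6 weeks (adjusted p = 0.159). Tjp1, the scaffold ZO-1, was up-regulated by 1.05 at 3 days (adjusted p = 0.00311) and by 1.20 at 4 weeks (adjusted p = 0.00826). Cav3, the caveolin of muscle, was the 1 partner called lower at 3 days, at -0.93 (adjusted p = 0.0306).

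Kinases that phosphorylate Cx43, and so set its assembly and gating, had both down- and up-regulated members at 3 days. Of 10 tested, 2 were up-regulated and 5 were down-regulated at 3 days, 0 and 1 at 1 week, 0 and 2 at 2 weeks, and 0 and 0 at 4 and 6 weeks (limma; 2 unadjusted at each). The share called higher at 3 days was near that over all probe sets (24.5%), as was the share called lower at 1 week (10.5%). The median log2 difference was -0.44 at 3 days. Prkcb, a protein kinase C, was at -1.57 ± 0.46 (SE, adjusted p = 0.0122), with signals of 201.4 in young, 155.2 in adult, and 156.0 in older rats at 3 days, against 391.1 in young, 269.8 in adult, and 1202.7 in older no-fracture rats. Camk2g, a calmodulin-dependent kinase subunit, was at -1.32 ± 0.33 (SE, adjusted p = 0.00478), whereas Camk2d, another subunit of that kinase, was at 0.86 ± 0.22 (SE, adjusted p = 0.00498). In older against young rats 0 of 10 were called by limma (1 unadjusted).

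Factors known to act on transcription of Gja1 were the last group of the pathway. They include AP-1 subunits, prostaglandin synthesis and receptors, the parathyroid hormone receptor, and transforming growth factors. Of 12 tested, 6 were up-regulated and 1 was down-regulated at 3 days, 4 and 0 at 1 week, 4 and 0 at 2 weeks, 1 and 0 at 4 weeks, and 1 and 0 at 6 weeks. The 1 call at 4 weeks and the 1 at 6 weeks were near the shares called higher over all probe sets, 5.05% and 3.19%. Ptgs2, the inducible cyclooxygenase, had the largest log2 change of the list at 3 days with the floor of 100. Its signal was 1095.5 in young, 1282.3 in adult, and 977.5 in older rats at 3 days, against 15 in young, 15.8 in adult, and 63.3 in older no-fracture rats. All 3 no-fracture signals lay below the floor of 100, so the log2 change of 3.47 ± 0.57 (SE, adjusted p = 0.000258) is set by that floor and understates the difference of the measured signals.

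Pth1r, the parathyroid hormone receptor, was the 1 regulator called higher at all 5 times, at 2.97 ± 0.31 (SE, adjusted p = 1.37e-05) at 3 days and 1.42 (adjusted p = 0.0195) at 6 weeks. The AP-1 subunits Junb, Fos, and Jun were up-regulated at 3 days by 1.57 (adjusted p = 9.24e-05), 1.48 (adjusted p = 0.000764), and 1.02 (adjusted p = 0.0222). Jun rose from 975.8 to 1746.0 in young and from 380.8 to 1669.3 in older rats, but only from 2042.5 to 2164.3 in adult rats. Fosl2, also an AP-1 subunit, went the other way and was not called, at -0.66 (adjusted p = 0.188, limma). Tgfb3 was up-regulated by 1.69 (adjusted p = 0.00174), and the prostaglandin receptor Ptger3 was down-regulated, at -0.96 (adjusted p = 0.0129). In older against young rats 0 of 12 were called by limma (2 unadjusted), and Ptgs2 stood at 1.10 ± 0.45 (SE, adjusted p = 0.184). That Ptgs2 value is also set by the floor. The young signals lay below 100 at 1, 2, 4, and 6 weeks, and the older signals at 4 and 6 weeks.

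**Figure D3:**
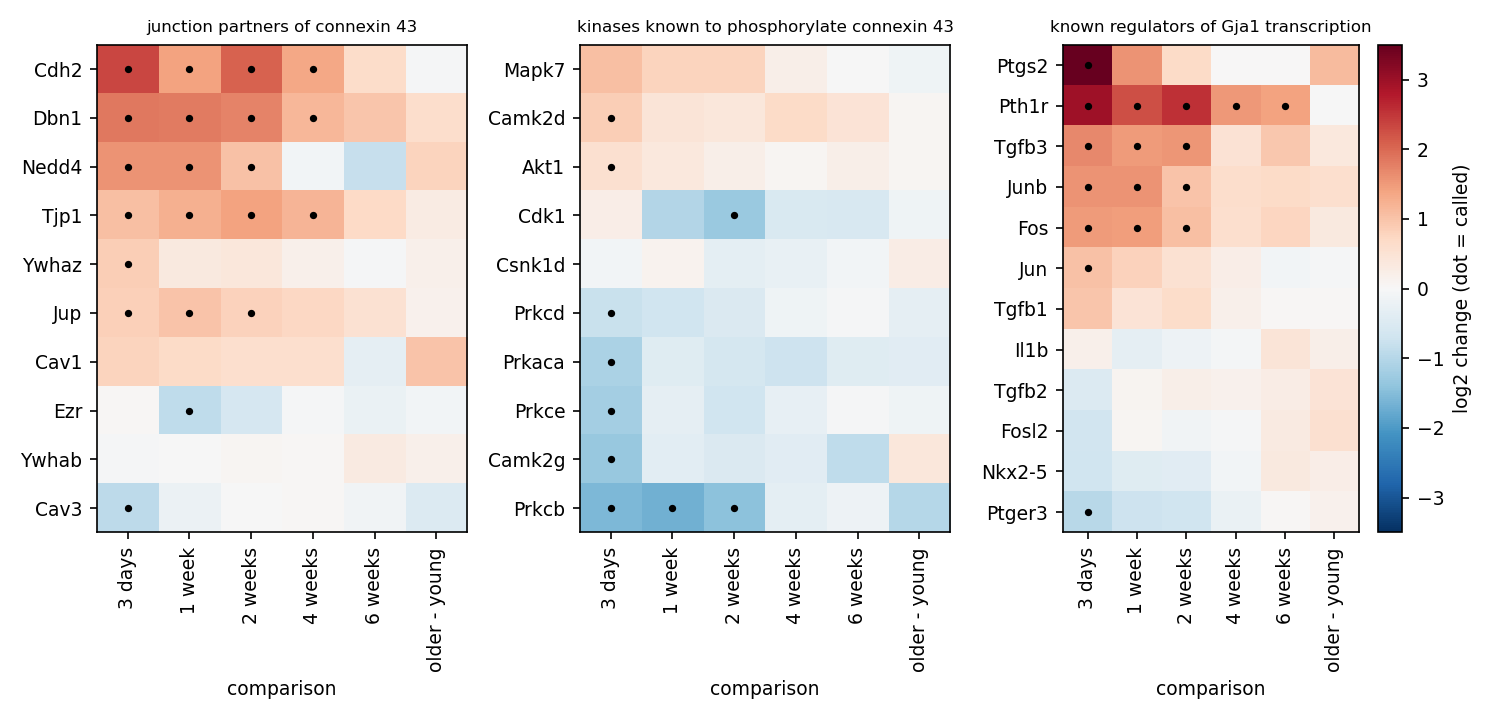
Limma log2 difference of each tested junction partner, kinase, and regulator at 5 times against no fracture and in older against young rats after fracture (colour, log2). A dot marks an adjusted p below 0.05. At 3 days the partners hold 6 higher and 1 lower call, the kinases 2 and 5, and the regulators 6 and 1, and the last column holds no dot.

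Markers of the other cells in the segment also changed at 3 days, when 24.5% of all probe sets were called higher and 19.7% lower. At that time, 6 osteoblast and osteocyte genes of 9 tested were called higher and 1 (Bglap) lower, and the summed signal of 10 named genes was 87548 to 113719 at 3 days, against 26600 to 84253 without fracture. Of the fibrous matrix genes, 14 of 16 were higher, with sums of 97316 to 114605 at 3 days, against 12454 to 46509 without fracture. Cartilage genes had 3 of 6 higher, with sums of 3871 to 6219 at 3 days, against 343 to 2359 without fracture. Macrophage genes had 3 of 4 higher and 1 lower, with sums of 12995 to 15704 at 3 days, against 9817 to 21742 without fracture.

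Muscle and marrow genes were lower at 3 days, when the mean of Gja1 and its signal in adult and older rats were highest, though not its signal in young rats. At 3 days 15 of 16 skeletal muscle genes were called lower, with sums of 55603 to 87081, against 123775 to 293661 without fracture. All 6 erythroid genes tested were lower, with sums of 7991 to 18371 at 3 days, against 76281 to 111097 without fracture. Of the 7 neutrophil genes 6 were lower, with sums of 1505 to 17051 at 3 days, against 44896 to 89122 without fracture. Smooth muscle and myofibroblast genes had 4 of 10 higher and 1 lower, with sums of 23195 to 30099 at 3 days, against 24165 to 53425 without fracture. Endothelial genes had 2 of 8 higher and 1 lower, close to the shares over all probe sets, with sums of 2779 to 3530 at 3 days, against 2896 to 3888 without fracture. The part of these shifts in the Gja1 values was not tested.

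The marker lists were also compared between the ages. In older against young rats after fracture, 1 of the 16 skeletal muscle genes was called, Myh2, at -1.53 ± 0.25 (SE, adjusted p = 0.0374), and the list had a median of -0.82, against 0.04 over all probe sets. Myh2 was already lower in older rats without fracture, at 2721.6, against 8905.7 in young rats (1 array each). The muscle sums after fracture were 87081 to 133034 in older rats, against 82751 to 234065 in young rats. Other medians lay farther from 0, at -1.65 for neutrophil genes (sums 3188 to 16364 in older rats, against 10168 to 62561 in young rats), -1.23 for erythroid genes (6058 to 64493 in older rats, against 18371 to 103992 in young rats), and 1.34 for cartilage genes (3871 to 23833 in older rats, against 1485 to 25203 in young rats). Of the 9 osteoblast and osteocyte genes, 16 fibrous matrix genes, 6 cartilage genes, 6 erythroid genes, and 7 neutrophil genes, 0 were called between older and young rats by limma, while 1 of 9, 10 of 16, 4 of 6, 5 of 6, and 5 of 7 in that order had an unadjusted p below 0.05. Without the share of all probe sets at that unadjusted p, these counts are not read as differences between the ages. With the young 6-week array left out, 0 probe sets in all were called between these ages, Myh2 included. The part of muscle, marrow, and cartilage content in the higher Gja1 signal of older rats was not tested.

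Across the 18 arrays, the mean log2 signal of a list was set beside that of Gja1 as a description. Each array came from other rats, but the arrays share the time course and the tissue makeup, so these correlations carry no p. Pearson's r with Gja1 was 0.84 for the junction partners (0.84 in young, 0.81 in adult, and 0.85 in older rats, 6 arrays each), 0.73 for fibrous matrix genes, 0.61 for osteoblast and osteocyte genes, 0.61 for macrophage genes, 0.60 for cartilage genes, and 0.52 for the regulators. It was 0.46 for smooth muscle genes, 0.32 for endothelial genes, and -0.03 for the other connexins. The connexin value rests on 4 genes with the brightest probe set of each. For Gja5 that was M76535cds_at and not AF022136_at, which read differently. Within ages some lists varied widely. The other connexins gave -0.85 in young, -0.33 in adult, and 0.24 in older rats, and the regulators 0.31 in young, 0.84 in adult, and 0.82 in older rats. Endothelial genes gave 0.08 in young, 0.59 in adult, and 0.02 in older rats, and the kinases -0.85 in young, -0.25 in adult, and -0.84 in older rats. It was negative for the kinases (-0.49), erythroid genes (-0.50), neutrophil genes (-0.52), and skeletal muscle genes (-0.67).

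Of 1750 genes with a mean signal of 500 or more at their highest time, the median r with Gja1 over 18 arrays was 0.03, 60 had an r of 0.8 or more, and 16 of -0.8 or less. The 10 most like Gja1 were Emp1 (0.93), Morf4l2 (0.92), Sec11a (0.89), Tmem59 (0.89), Vmp1 (0.88), Ctsc (0.88), Slc12a4 (0.88), Pls3 (0.87), Cald1 (0.87), and Actn4 (0.87). They were picked for this likeness, so their courses are no separate support for that of Gja1. Emp1 is a membrane protein of the PMP22 family, Sec11a a subunit of signal peptidase, Ctsc a lysosomal protease, and Pls3, Cald1, and Actn4 bind actin. With the mean of each time removed from both genes, r was 0.90 for Emp1, 0.94 for Morf4l2, and 0.80 for Pls3.

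Emp1 had the highest r of all genes compared. At 6 weeks its signal was 458.2 in young, 489.2 in adult, and 1270.1 in older rats, against 644.0 in young, 303.4 in adult, and 345.6 in older no-fracture rats. At 3 days it was 1056.5 in young, 1329.6 in adult, and 1381.4 in older rats. Like Gja1, it was highest in older rats at 3 days and 6 weeks and highest in young rats without fracture.

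The 5 genes least like Gja1 were Mapk14 (-0.92), a stress-activated kinase, Cox4i1 (-0.91), a subunit of cytochrome c oxidase, Ybx3 (-0.87), Ctdsp1 (-0.85), and Sftpb (-0.85). Cox4i1 had a signal of 20763.0 in young, 19668.8 in adult, and 9749.9 in older rats at 6 weeks, and of 9053.8 in young, 8427.3 in adult, and 8322.3 in older rats at 3 days. It was low where Gja1 was high at both times. Of the 10 most like genes, 9 had a promoter window, and 1 of these (Emp1) held the AP-1 motif, 7 the GC box, and 1 (Emp1) the RUNX motif. Over all 33469 rat windows the shares were 7.33%, 33.1%, and 17.3% in that order. With 9 windows of genes picked for likeness, no shared promoter feature is read from these counts.

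**Figure D4:**
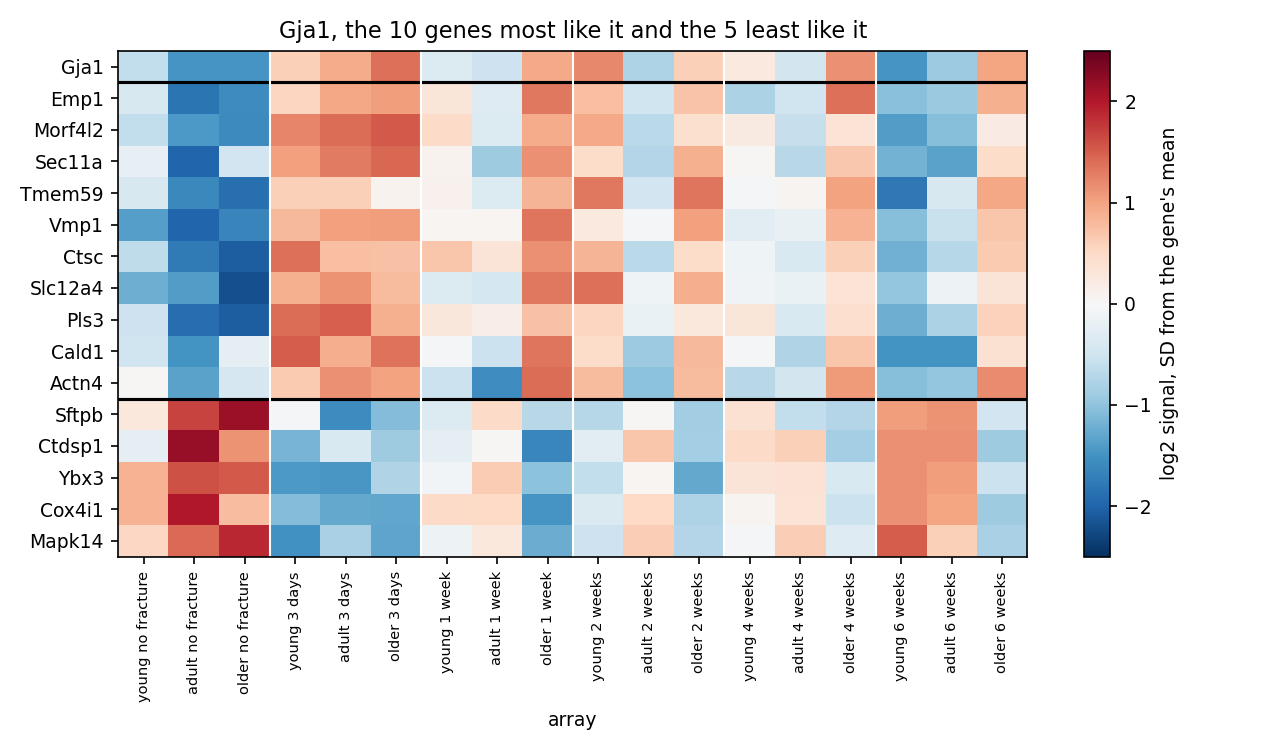
Log2 signal of Gja1, the 10 genes most like it, and the 5 least like it on each of 18 arrays, as SD from the mean of each gene (colour). Arrays run from no fracture to 6 weeks with young, adult, and older rats within each time. Most of the like genes share with Gja1 low no-fracture arrays and, at 6 weeks, a higher older array.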

How the data were processed

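Per the labels and the study's methods, the authors hybridized RNA of 2 pooled rats to each of 18 Affymetrix rat arrays, the first of several such sets. The other sets were not used here. The deposited values are linear intensities, the signals of Affymetrix Microarray Suite, which the authors scaled on each array to a common average. Trimmed by 2% at both ends, the array means were 500.6 to 500.9. Detection calls were not used here. Scaling fixes the array average and not the amount of RNA of a cell type.

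The platform's annotation, with current symbols for 6994 probe sets by gene identifier, named a single gene for 7018 probe sets, more than 1 gene for 308, and no gene for 1473. A floor of 100 was set under the signals before log2. Apart from 59 controls, a probe set had to reach 200 on 3 or more arrays, and the 4669 that did were tested with limma 3.58.1 in R 4.3.3 (lmFit, eBayes with trend, two-sided). Each time was compared with no fracture with age as a term, and older with young rats over the 15 post-fracture arrays, with time in the model. Adjusted p is by Benjamini-Hochberg over the 4669 probe sets, with a threshold of 0.05. A gene with several probe sets was represented in the lists by the brightest.

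Gja1 and the gene lists were chosen with earlier results of these data known. The named genes were all tested connexins, up to 3 called genes per list by size of change at 3 days, brighter list members where values were needed, and the 10 genes of highest and 5 of lowest Pearson r with Gja1. Tested on simulated data for 3 days against no fracture over 4669 probe sets, the fit recovered 41% of changes of 1 and 94% of changes of 2 on the log2 scale, and 8.16% of its calls were on unchanged probe sets. For older against young rats it recovered 64% and 100%, with 6.82%. The simulated noise was independent between probe sets, no floor of 100 was set, and only 100 probe sets changed by each amount. The measured data differ in these points, so the rates may not hold for them. The number of arrays limits the precision. The alternatives were other floors, scalings, and filters, an ordinary t-test of 3 arrays against 3, fits without age or time terms, and leaving out arrays or ages. Promoter windows are from RefSeq (GRCr8).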

Additional observations from a re-analysis of the deposited data

How the results depend on the processing

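With a floor of 20 in place of 100, the mean log2 difference of Gja1 from no fracture was 3.73 at 3 days, 2.79 at 1 week, 3.10 at 2 weeks, and 3.07 at 4 weeks, since the no-fracture signals of adult and older rats were below the floor. Other floors and scalings moved the Gja1 differences by less than the SD. Leaving out an array or an age gave 1.65 to 2.67 at 3 days, 0.62 to 1.72 at 1 week, 0.99 to 1.97 at 2 weeks, 0.95 to 1.91 at 4 weeks, -0.15 (without the older rats) to 1.53 (without the young rats) at 6 weeks, and 0.67 to 1.38 for older minus young. These are least-squares estimates with time and age as terms. Counts of called probe sets moved more. An ordinary t-test of 3 arrays against 3, after Benjamini-Hochberg, called 848 at 3 days (2062 by limma), 1 at 1 week (1160), 18 at 2 weeks (984), 0 at 4 weeks (303), and 0 at 6 weeks (205). The study's own t-tests were on named genes over more arrays, so these counts do not stand for them. With no filter there were 112 calls at 4 weeks and 60 at 6 weeks, and with no age term 190 and 104. Leaving out an age gave 892 to 1726 at 3 days, 495 to 1039 at 1 week, 249 to 802 at 2 weeks, 0 to 357 at 4 weeks, and 0 to 322 at 6 weeks, with the lowest counts without adult rats. Equal array medians moved the median of all probe sets at 4 weeks by more than 0.1, to -0.10, against 0.04, and the higher share of calls to 62.4%, against 77.9% (59.6% against 72.7% at 6 weeks). For older against young rats the 7 calls (57.1% of them higher) became 42 with equal array medians (33.3% higher, with the median of all probe sets at -0.08, against 0.04), 5 with quantile normalization (2 of them higher), and 0 with a floor of 200, no filter, no time term, or without the young 6-week array, and 0 to 457 with 1 array left out. The cause was not tested. Of the 7 connexin calls none reversed, all were lost in the ordinary t-test, Gjb1 at 3 days also with a floor of 200 (-0.54) or no filter, and Gja4 at 2 weeks with no filter. Of the 10 genes most like Gja1, 4 remained with a floor of 20, 4 with a floor of 200, 5 with quantile normalization, 5 by Spearman's rho, 9 with equal medians, and 2 to 5 with an age left out. Other Gja1 probe sets could not be tried, since only 1 was annotated. The labels put all arrays in series 1 and give no further replicate number. Age was the only block between times. Signals of Gja1 below 100 have no order among themselves.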
